A study of Mus musculus with 12 samples.

Results

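The genes described here are Spint1, Spint2, St14 and Prss8, 4 of the 22180 mouse genes that had a probe set naming a single gene. They encode the membrane serine proteases matriptase (St14) and prostasin (Prss8) and the Kunitz-type inhibitors HAI-1 (Spint1) and HAI-2 (Spint2). They were chosen by name, with their array values and tests in these data already known, and where a gene has several probe sets the one with the highest mean log2 intensity over the 12 arrays was to stand for it. Each gene had 1 such probe set, so that step made no choice. Those means were 6.34 for Spint1, 7.54 for Spint2, 7.63 for St14 and 6.05 for Prss8. Values of different probe sets are not comparable as levels, because probes differ in how strongly they bind.

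The study used mouse embryonic fibroblasts from E13.5 embryos of the strains C57Bl/6 and 129X1/SvJ, joined in the label, and the genotype Col1a1::tetOP-OKSM ; R26-M2rtTA. In these cells doxycycline switches on Oct4, Klf4, Sox2 and c-Myc (OKSM), the factors that reprogram fibroblasts towards pluripotency, through a reverse tetracycline transactivator at the Rosa26 locus. All cells received a retroviral hairpin, against Chaf1a in the knockdown groups or against Renilla luciferase, a gene that mouse cells lack, in the control groups. All were then kept in doxycycline with serum and LIF for 3 or 6 days, so no group here is without the factors. The Chaf1a product is the largest part of CAF-1, a chaperone that places histones on newly copied DNA. There were 3 arrays in each of the 4 groups, day 3 control, day 3 knockdown, day 6 control and day 6 knockdown. Whether the replicates are separate embryos or cultures is not in the labels, nor is the number of hairpins used, so p-values measure the spread between these samples, which may be technical.

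Matriptase sits in the plasma membrane of epithelial cells, where it and prostasin, which is held by a lipid anchor, activate each other and cut receptors, growth factor precursors and junction proteins. HAI-1 and HAI-2 are membrane proteins whose Kunitz domains block the active site of these proteases. Epithelia make the proteases together with the inhibitors, and mouse tissues that lose an inhibitor while they keep matriptase lose epithelial integrity. Fibroblasts under OKSM pass early through a change from a mesenchymal to an epithelial pattern of expression. How far fibroblast and epithelial markers moved on these arrays is described below.

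RefSeq promoter windows on GRCm38.p6, from 250 bases before to 50 bases after an annotated start, were at hand for 2 of the 4 genes, Spint1 and Spint2. Both windows at hand are shown, so that the letters can be read beside the values of the 2 inhibitors. Capitals mark CAGGTG, or its reverse complement CACCTG, the E-box bound by the Snail and Zeb repressors of epithelial genes. Both sequences run 5′ to 3′ along the gene, Spint1 from the plus strand of chr2:119237110-119237409 and Spint2 from the minus strand of chr7:29281928-29282227.
Spint1: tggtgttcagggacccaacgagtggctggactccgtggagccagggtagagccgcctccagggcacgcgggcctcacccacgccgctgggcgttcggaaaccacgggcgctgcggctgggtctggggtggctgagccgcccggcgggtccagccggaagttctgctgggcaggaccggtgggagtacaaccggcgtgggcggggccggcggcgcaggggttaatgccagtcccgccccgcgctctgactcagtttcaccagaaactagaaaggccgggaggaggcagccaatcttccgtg
Spint2: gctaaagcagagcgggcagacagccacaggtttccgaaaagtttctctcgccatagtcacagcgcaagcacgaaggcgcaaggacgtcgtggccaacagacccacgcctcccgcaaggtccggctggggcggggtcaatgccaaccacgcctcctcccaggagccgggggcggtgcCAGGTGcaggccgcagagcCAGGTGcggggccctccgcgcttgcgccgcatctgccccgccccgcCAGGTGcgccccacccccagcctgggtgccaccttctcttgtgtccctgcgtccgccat
The Spint2 window held the E-box 3 times, with first bases at positions −74, −55 and −9 from the start, and the Spint1 window held none. Of 32851 windows of the same length, 20.2% held at least 1 such E-box and 0.365% held at least 3. Both windows were rich in G and C, at 69.7% for Spint1 and 69.3% for Spint2 against a median of 52.7%. The AP-2 motif GCCNNNGGC was present once in each, as in 16.6% of all windows. The KLF motif GGGNGTG, or CACNCCC on the other strand, was present once in Spint2, as in 29.2% of windows, and not in Spint1. Neither window held the GRHL motif AACCGGTT, found in 0.146% of windows, or the octamer ATGCAAAT, found in 1.74%. All motifs were sought on both strands, and none of the 6 matches overlapped another. A match is a run of letters and not evidence of binding.

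The files hold RMA-normalised signal intensities, which were taken to log2. Median log2 intensity per array lay between 5.30 and 5.44, and a gene was tested if it reached its array's 30th percentile (4.30 to 4.38) in at least 3 arrays, which 17860 genes did, the 4 described here among them. Chaf1a itself ran from 7.42 to 7.72 in day 3 controls, 7.18 to 7.35 in day 3 knockdown, 7.06 to 7.31 in day 6 controls and 7.04 to 7.16 in day 6 knockdown arrays. It was lower in knockdown by 1.22-fold at day 3 (adjusted p = 0.726) and 1.09-fold at day 6 (adjusted p = 0.999), neither past the test. Of 16 fibroblast markers with a probe set 15 passed the filter, with Vim at a mean of 13.32 and Fn1 at 12.34, and the marker that did not was Lum. The summed linear intensity of the fibroblast markers was 25718 to 28886 over all 12 arrays, most of it from Vim and Fn1. Pdgfra (mean 5.36) lay near the array medians. From day 3 to day 6, 1 of the 15 rose under each hairpin, which was Pdgfrb, by 1.11 in control and 0.91 in knockdown cells (adjusted p = 0.00123 and 0.00375). That count is near the share over all genes, of which 6.99% rose in control and 7.46% in knockdown cells. Between hairpins none was called, and at day 6 the median of the 15 was −0.06 with 1 of them above 0, beside a median of −0.01 over all genes.

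Between day 3 and day 6 the 2 inhibitors rose under both hairpins, matriptase passed the test in knockdown and not in control cells, and prostasin did not pass under either. Whether matriptase changed differently under the 2 hairpins was tested, and that difference did not pass. In control cells Spint1 rose 2.41-fold and Spint2 1.70-fold, and in knockdown cells Spint1 rose 5.06-fold, Spint2 2.09-fold and St14 1.59-fold. At day 6 all 4 genes had higher means in knockdown than in control arrays, and 1 of them, Spint1, passed the test at 2.20-fold, 1 of 7 genes (0.0392% of 17860) called higher there. That call was lost when the replicate number was fitted as a block (adjusted p = 0.0820). At day 3 none passed.

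**Figure D1:**
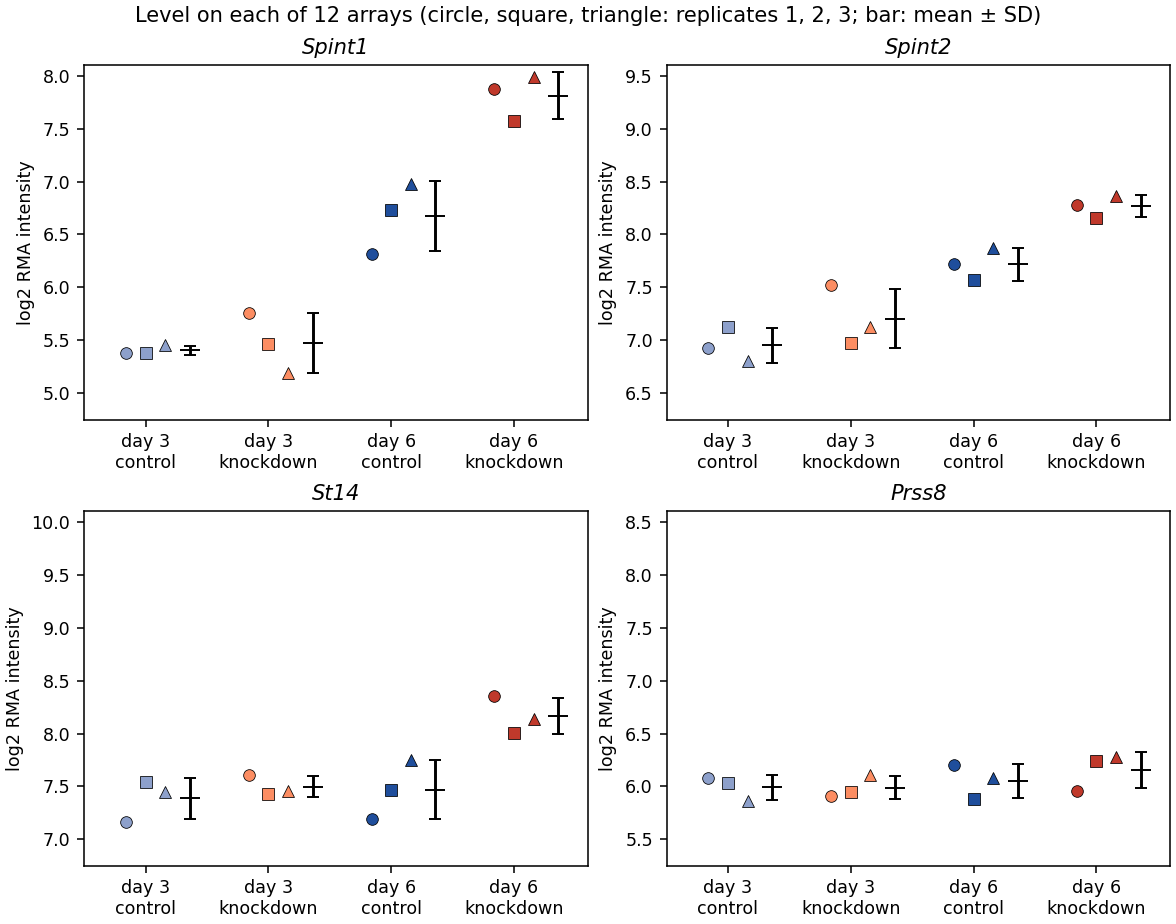
Log2 RMA intensity of each gene (y axis, spanning the same number of log2 units in each panel) on the 12 arrays, by group (x axis). Circles, squares and triangles are replicates 1, 2 and 3, and the bar beside them is the mean ± SD of 3 arrays. Spint1 climbs from 5.40 in day 3 controls to 7.81 in day 6 knockdown arrays, while Prss8 stays between 5.86 and 6.27.

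Spint1 encodes HAI-1, which was first found as an inhibitor of the hepatocyte growth factor activator and is the main partner of matriptase in epithelia. Replicates 1 to 3 of the day 3 control had a log2 intensity of 5.38, 5.38 and 5.46, and those of the day 3 knockdown 5.76, 5.47 and 5.19. In day 6 control arrays it was 6.32, 6.73 and 6.98, and in day 6 knockdown arrays 7.88, 7.57 and 7.99. The day 3 groups overlapped, every day 6 array lay above every day 3 array, and every day 6 knockdown array lay above every day 6 control array. Of all genes, 16% had day 6 controls wholly above day 3 controls, 15.4% had day 6 knockdown wholly above day 3 knockdown arrays, and 5% had day 6 knockdown wholly above day 6 control arrays.

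The day 6 knockdown difference of Spint1 was a log2 fold change of 1.14 (SE 0.17, 95% interval 0.77 to 1.50, adjusted p = 0.0435 in limma with Benjamini-Hochberg adjustment over 17860 genes). Spint1 had the seventh smallest p of all genes, and the last within the threshold. This call was known when the gene was chosen, so it is no independent support. Within replicate numbers the difference was 1.56, 0.84 and 1.02, higher in 3 of 3 pairs. The fold change stayed between 0.93 and 1.29 when arrays were left out, but the call was lost in 11 of those 15 fits. It was lost without day 6 control replicate 1 (0.96, adjusted p = 0.161) or 2 (1.17, 0.177), without day 6 knockdown replicate 1 (1.11, 0.229) or 3 (1.05, 0.184), and without replicate 1 (0.93, 0.415), 2 (1.29, 0.723) or 3 (1.20, 0.453) of all groups. Leaving out day 3 control replicate 1, 2 or 3 or day 3 knockdown replicate 2 does not touch the day 6 values and still ended the call (adjusted p = 0.1004, 0.115, 0.0946 and 0.0765).

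The rise of Spint1 over time was the firmer measurement. In control cells the log2 fold change from day 3 to day 6 was 1.27 (SE 0.17, adjusted p = 0.000358), against a background of 6.99% of genes called higher in that comparison. In knockdown cells it was 2.34 (SE 0.17, adjusted p = 3.98e-06), against 7.46% of genes called higher. Both passed in all 15 fits with arrays left out and in all 10 other settings. The knockdown effect at day 6 exceeded that at day 3 by 1.07 (95% interval 0.55 to 1.59), which is also the amount by which the rise in knockdown cells exceeded that in controls. That difference did not pass over all genes (adjusted p = 0.874), a comparison in which 0% of genes were called and 5.1% had an unadjusted p under 0.05.

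Spint2 encodes HAI-2, a second Kunitz inhibitor that acts on both matriptase and prostasin. Its log2 intensity was 6.93, 7.13 and 6.80 in day 3 control arrays and 7.52, 6.97 and 7.12 in day 3 knockdown arrays. At day 6 it was 7.72, 7.57 and 7.87 in control arrays and 8.28, 8.16 and 8.37 in knockdown arrays. The day 3 groups overlapped, through the high knockdown replicate 1, and the day 6 groups did not. Day 6 knockdown arrays lay wholly above day 6 control arrays in 5% of all genes.

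Spint2 rose by 0.77 from day 3 to day 6 in control cells (SE 0.13, adjusted p = 0.00208) and by 1.06 in knockdown cells (SE 0.13, adjusted p = 0.000213). The control call was lost only without replicate 3 of all groups (0.61, adjusted p = 0.0688), among 15 fits with arrays left out and 10 other settings. The knockdown minus control difference at day 6 was 0.55 (95% interval 0.26 to 0.84, adjusted p = 0.462), with 0.56, 0.59 and 0.49 in the 3 pairs. Those pairs differed little from each other, and the groups were apart, but the difference did not pass over all genes. At day 3 the difference was 0.25 (95% interval −0.04 to 0.54, adjusted p = 0.859), and the pairs split, with 0.59, −0.16 and 0.32.

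**Figure D2:**
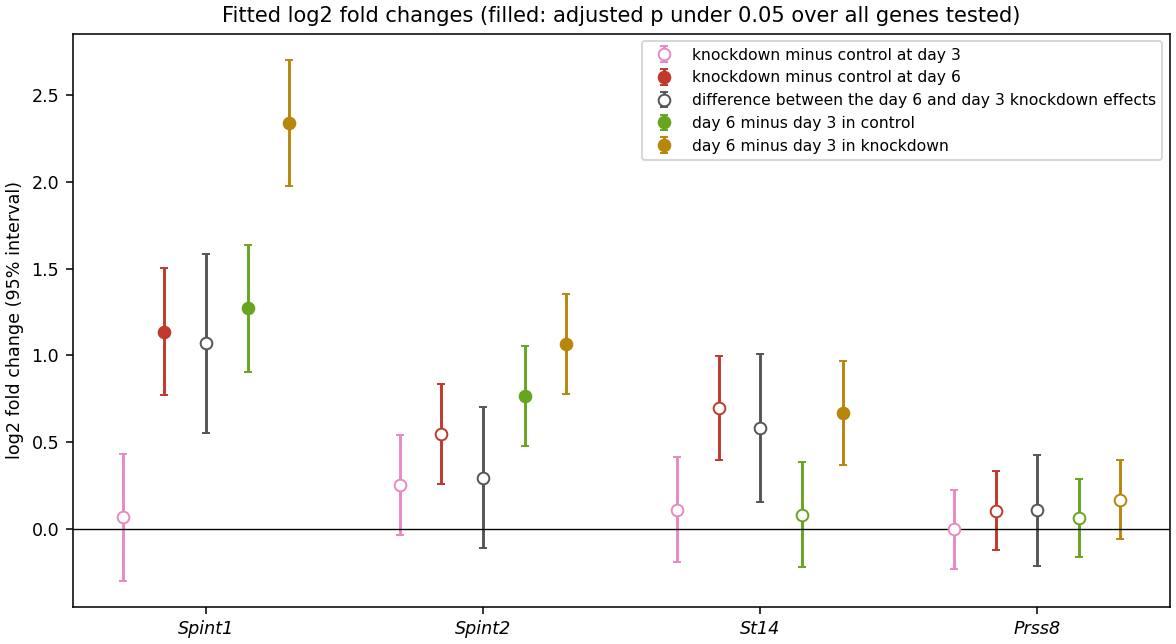
Fitted log2 fold changes (y axis) of the 4 genes in the 5 comparisons, with 95% intervals from limma over 12 arrays. Filled circles have an adjusted p under 0.05 over all 17860 genes. The 6 filled circles are 3 of Spint1, 2 of Spint2 and 1 of St14, and all 5 intervals of Prss8 include 0.

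St14 encodes matriptase, the protease that both inhibitors bind. In day 3 arrays its log2 intensity was 7.17, 7.54 and 7.45 in controls and 7.61, 7.43 and 7.45 in knockdown cells. At day 6 it was 7.19, 7.46 and 7.75 in controls and 8.35, 8.01 and 8.14 in knockdown cells. The 3 groups other than day 6 knockdown overlapped each other, and every day 6 knockdown array lay above every array of the other groups. Of all genes, 5% had day 6 knockdown wholly above day 6 control arrays, and 15.4% had it wholly above day 3 knockdown arrays. The share with day 6 knockdown above all other groups was not counted.

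From day 3 to day 6 St14 rose in knockdown cells by 0.67 (SE 0.14, adjusted p = 0.00560), with 0.74, 0.58 and 0.68 in the 3 pairs. The call was lost without replicate 2 (0.71, adjusted p = 0.0531) or replicate 3 (0.66, adjusted p = 0.0538) of all groups. In control cells the change was 0.08 (95% interval −0.22 to 0.38, adjusted p = 0.745), with pairs of 0.03, −0.08 and 0.30. The 2 changes differed by 0.58 (95% interval 0.16 to 1.01), which did not pass over all genes (adjusted p = 0.918), so St14 is not shown to behave differently under the 2 hairpins. The knockdown minus control difference at day 6 was 0.70 (95% interval 0.39 to 1.00, adjusted p = 0.262), with 1.16, 0.54 and 0.38 in the pairs. In replicate 1 the control array was the lowest of the day 6 controls and the knockdown array the highest of its group, and without replicate 1 of all groups the difference was 0.46. At day 3 it was 0.11 (95% interval −0.19 to 0.41, adjusted p = 0.950).

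Prss8 encodes prostasin, which is thought to work upstream and downstream of matriptase. Its log2 intensity was 6.08, 6.03 and 5.86 in day 3 control arrays and 5.91, 5.94 and 6.11 in day 3 knockdown arrays. At day 6 it was 6.20, 5.88 and 6.07 in controls and 5.96, 6.24 and 6.27 in knockdown cells. All 4 groups overlapped.

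The fitted changes of Prss8 were −0.00 at day 3 and 0.11 at day 6 for knockdown minus control, and 0.06 in control and 0.17 in knockdown cells for day 6 minus day 3. Their adjusted p-values ran from 0.305 for the last to 0.999 for the day 6 knockdown difference. The 95% intervals reached −0.23 to 0.22 for the day 3 difference, −0.12 to 0.33 for the day 6 difference, −0.16 to 0.29 for the control change and −0.06 to 0.40 for the knockdown change. The smallest change that passed among the other 3 genes, 0.67 for St14, is above all of these upper bounds.

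**Figure D3:**
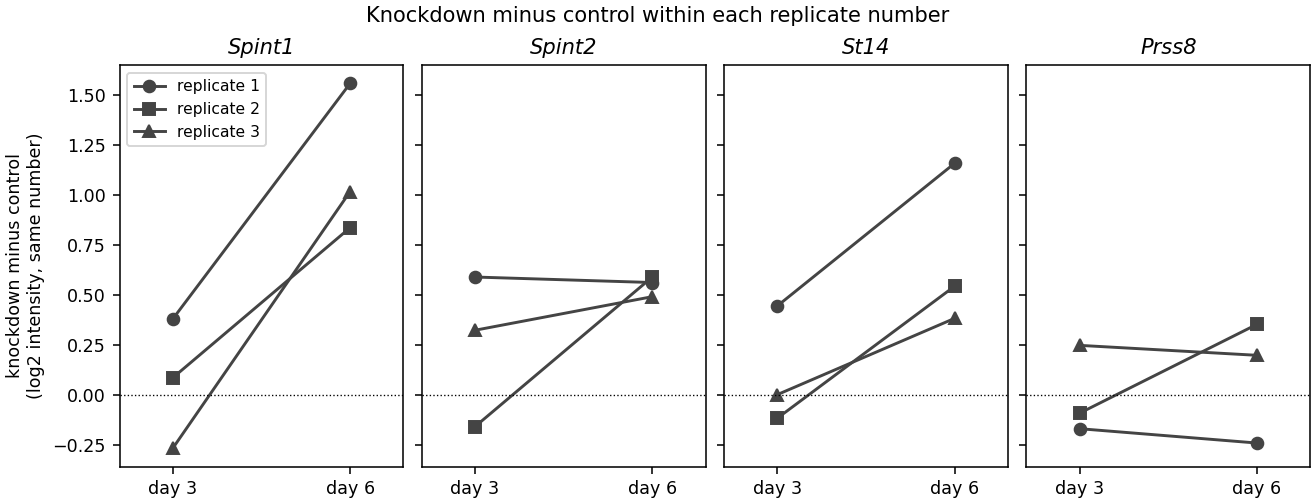
Knockdown minus control log2 intensity (y axis) within each replicate number at day 3 and day 6 (x axis), 1 panel a gene. All 3 lines of Spint1 and St14 climb from day 3 to day 6, those of Spint2 end together between 0.49 and 0.59, and those of Prss8 lie on both sides of 0 on both days.

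For both inhibitors and St14, day 3 control had the lowest mean and day 6 knockdown the highest. For Spint1 the neighbours day 3 control (5.40 ± 0.04, SD, n = 3) and day 3 knockdown (5.47 ± 0.28) did not differ beyond their spread, while day 6 control (6.67 ± 0.33) and day 6 knockdown (7.81 ± 0.22) stood apart from what came before them. For Spint2 the means were 6.95 ± 0.17, 7.20 ± 0.28, 7.72 ± 0.15 and 8.27 ± 0.11, with overlap between the day 3 groups and none between the others. For St14 they were 7.39 ± 0.20 in day 3 control, 7.47 ± 0.28 in day 6 control and 7.50 ± 0.10 in day 3 knockdown, which did not differ beyond their spread, and 8.17 ± 0.17 in day 6 knockdown. For Prss8 they were 5.99 ± 0.11 in day 3 knockdown, 5.99 ± 0.12 in day 3 control, 6.05 ± 0.16 in day 6 control and 6.16 ± 0.17 in day 6 knockdown, and no neighbours differed beyond their spread.

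The log2 ratio of Spint1 to St14 signal on an array, set to 0 at the mean of the day 3 controls, ran from −0.18 to 0.19 in the day 3 control group and from −0.28 to 0.13 in the day 3 knockdown group. It was 1.11 to 1.25 in day 6 controls and 1.51 to 1.84 in day 6 knockdown arrays, so both day 6 groups lay above both day 3 groups and apart from each other. The log2 ratio of Spint2 to St14 ran from −0.22 to 0.20 in day 3 controls, −0.02 to 0.34 in day 3 knockdown, 0.54 to 0.96 in day 6 controls and 0.36 to 0.66 in day 6 knockdown arrays. For that ratio the day 6 groups overlapped each other and lay above all day 3 arrays. These ratios describe array signal and not amounts of protein. They have no test because the genes were chosen with their values known. The share of other gene pairs with ratios apart in this way was not counted. In control cells St14 changed by 0.08 over time and Spint1 by 1.27, so there the Spint1 ratio mostly restates the Spint1 rise.

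**Figure D4:**
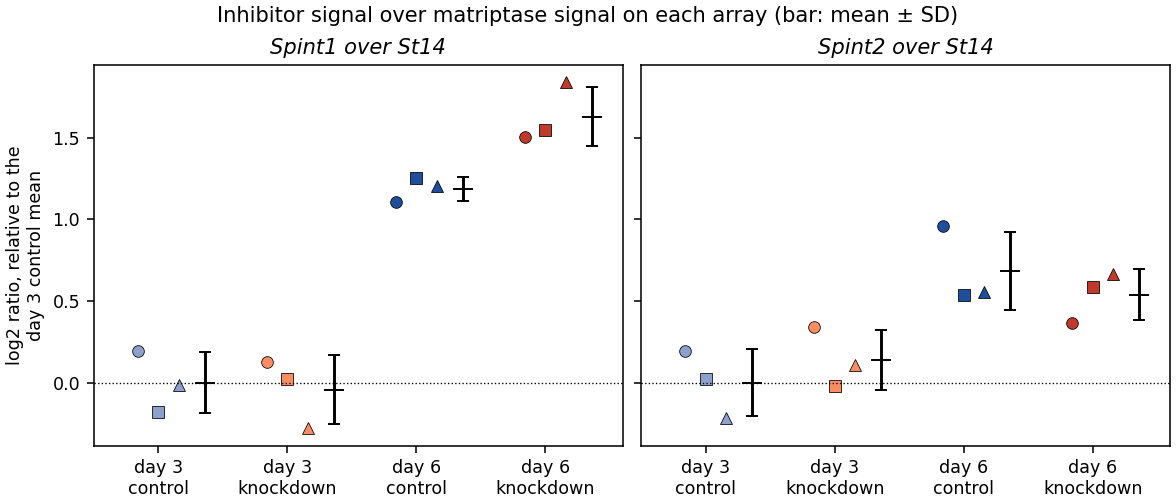
Log2 ratio of inhibitor to matriptase signal on each array (y axis), relative to the mean of the day 3 controls, by group (x axis). Symbols are replicates 1, 2 and 3 and the bar is the mean ± SD of 3 arrays. Spint1 over St14 averages 1.19 for control and 1.63 for knockdown at day 6, and Spint2 over St14 averages 0.68 and 0.54.

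Other genes of this protease system were counted from 3 lists. Of 28 other membrane or secreted serine proteases, 27 had a probe set and 23 passed the filter. At day 6 against day 3, 1 rose and 1 fell in control cells and 0 rose and 2 fell in knockdown cells, with median log2 fold changes of 0.04 and 0.04 against 0.01 and 0.01 over all genes. Over all genes 6.99% were called higher and 10.6% lower in control cells, and 7.46% higher and 10.5% lower in knockdown cells. Tmprss5, a relative of matriptase known from nervous tissue, rose by 0.65 in control cells (adjusted p = 0.00631) and had 0.37 in knockdown cells (adjusted p = 0.0831). Klk8, a kallikrein, fell by 0.40 in control cells (adjusted p = 0.0228) and by 0.55 in knockdown cells (adjusted p = 0.00377). Plau, the urokinase that matriptase can activate, had −0.18 in control cells (adjusted p = 0.457) and fell by 0.49 in knockdown cells (adjusted p = 0.0388). Plat, the tissue plasminogen activator, had 0.28 and 0.16 without passing.

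Of 22 other inhibitors 19 had a probe set and 13 passed the filter, and 2 rose in control cells while 2 rose and 1 fell in knockdown cells. Over all genes 6.99% rose in control cells, and 7.46% rose and 10.5% fell in knockdown cells. Whether these small counts of 13 genes differ from those shares was not tested. Serping1, the serpin that inhibits C1 esterase, rose by 1.26 in control (adjusted p = 0.000557) and 1.12 in knockdown cells (adjusted p = 0.00107). Aplp2 and App carry Kunitz domains as Spint1 and Spint2 do. Aplp2 rose by 0.21 and 0.20 (adjusted p = 0.0170 and 0.0211), and App had 0.14 and 0.11 without passing. Tfpi, the Kunitz inhibitor of the tissue factor pathway, fell by 0.27 in knockdown cells (adjusted p = 0.0107).

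Of 20 substrates and receptors 19 had a probe set and 18 passed the filter. In control cells 0 rose and 3 fell, and in knockdown cells 1 rose and 5 fell. Over all genes, too, more fell than rose, 10.6% against 6.99% in control and 10.5% against 7.46% in knockdown cells. The 5 of 18 that fell in knockdown cells are a larger share than 10.5%, and that difference was not tested. Met, the receptor for hepatocyte growth factor, fell by 0.82 in both (adjusted p = 5.55e-05 and 4.17e-05). Plaur, the urokinase receptor, fell by 1.13 in control and 0.90 in knockdown cells (adjusted p = 1.79e-05 and 7.44e-05). Egfr fell by 0.35 and 0.26 (adjusted p = 0.00759 and 0.0346), and Mst1, whose product matriptase activates, fell by 0.46 in knockdown cells (adjusted p = 0.0125). Igfbp7 fell by 0.35 in knockdown cells (adjusted p = 0.0246), and the thrombin receptor F2r had −0.19 and −0.24 without passing. Epcam, an adhesion protein that matriptase cleaves in epithelia, rose by 1.24 in knockdown cells (adjusted p = 0.000989) and had 0.31 in control cells (adjusted p = 0.317).

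Between hairpins none of the 3 lists held a call on either day. The median log2 fold changes at day 6 were −0.02 for the 23 proteases, 0.00 for the 13 inhibitors and −0.02 for the 18 substrates and receptors, against −0.01 over all genes. For Spint1, Spint2, St14 and Prss8 the median was 0.62 at day 6 and 0.09 at day 3, values that are a description because the genes were chosen with results known. At day 3 the medians were −0.02, 0.03 and 0.01 for the 3 lists and −0.01 over all genes. At that day 0% of genes were called, and 1074 of 17860 genes (6.01%) had an unadjusted p under 0.05.

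**Figure D5:**
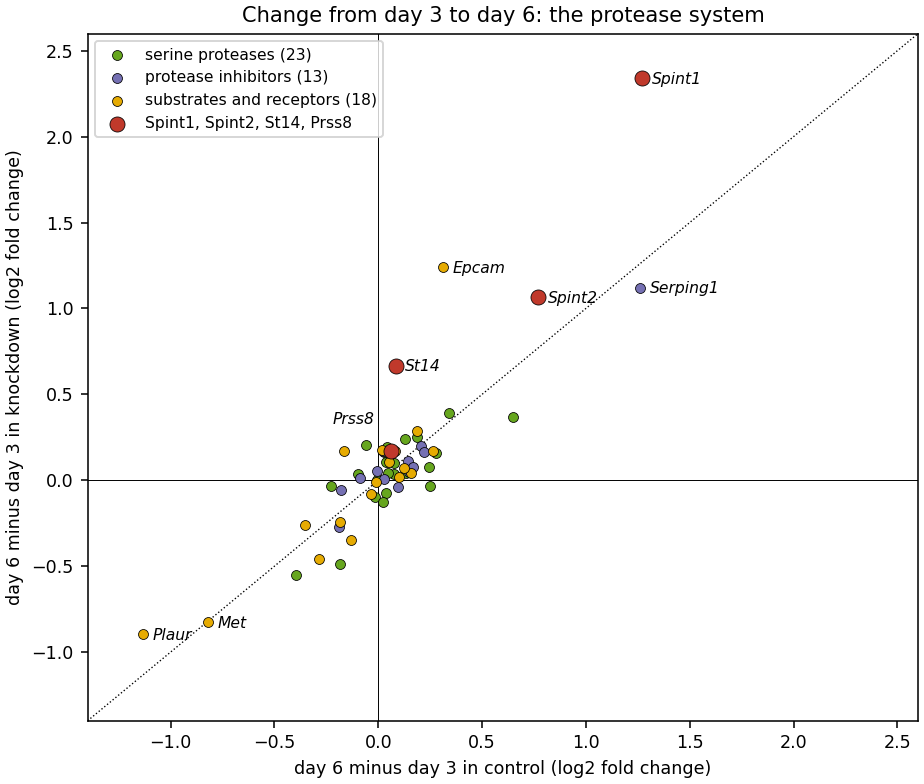
Change from day 3 to day 6 in control cells (x axis) and in knockdown cells (y axis), as fitted log2 fold changes that share no array, for Spint1, Spint2, St14, Prss8 and the tested genes of the 3 lists. On the dotted line the 2 changes are equal. Spint1 lies at 1.27 and 2.34, Serping1 at 1.26 and 1.12, and most genes of the lists lie near 0 on both axes.

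From day 3 to day 6 some epithelial markers rose, as the inhibitors did, and others did not. All 17 markers with a probe set passed the filter, and of these 2 rose and 1 fell from day 3 to day 6 in control cells, 9 rose and 1 fell in knockdown cells, and 1 was called at day 6 between hairpins. Many of the 17 were low. Grhl2, at rank 8 by mean level, was at 5.22, below the array medians of 5.30 to 5.44, and the lowest, Elf3, was at 4.18. Over all genes 6.99% rose and 10.6% fell in control cells, and 7.46% rose and 10.5% fell in knockdown cells. The control counts are near those shares. At day 6 between hairpins 15 of the 17 lay above 0, with a median of 0.21 beside −0.01 over all genes. The called marker was Cdh1, which encodes E-cadherin, with log2 fold changes of 0.96 in control cells over time, 1.99 in knockdown cells over time and 1.00 between hairpins at day 6 (adjusted p = 0.000323, 1.44e-06 and 0.0130). The marker that fell was Krt19, by 0.99 in control and 0.94 in knockdown cells (adjusted p = 1.37e-05 and 1.41e-05). The summed linear intensity of the 17 markers was 1427 to 1552 in day 3 controls, 1361 to 1525 in day 3 knockdown, 1302 to 1312 in day 6 controls and 1596 to 1731 in day 6 knockdown arrays. Krt19 had the highest mean of the list and carried the fall of the sum in controls. The other 16 summed to 784 to 800 in day 3 controls, 722 to 824 in day 3 knockdown, 949 to 974 in day 6 controls and 1238 to 1402 in day 6 knockdown arrays. Without Krt19 the day 6 sums thus lay above the day 3 sums under both hairpins. Cdh1 had the next highest mean and is among these 16, at group means of 6.70, 6.68, 7.67 and 8.67 in the same order. No sum without Cdh1 was made, so how far the other genes share that rise is not shown by the sums. The share of the Spint1, Spint2 and St14 changes that goes with more epithelial-like cells was not tested, and in bulk samples more cells of a type and more RNA per cell cannot be told apart.

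Markers of other cell types were summed in the same way. The 9 keratinocyte markers summed to 565 to 640 over all 12 arrays, with 0 called between hairpins on either day and 1, Krt10, higher over time in knockdown cells, and the 2 with the highest level, Sfn and Krt10, were at means of 7.98 and 6.62. The 6 endothelial markers summed to 1115 to 1344, with Tek at 9.99 and Kdr at 6.37, and 2 of 5 tested rose over time under each hairpin. The shares over all genes, for this and the other marker counts, were 6.99% higher and 10.6% lower in control cells. In knockdown cells they were 7.46% higher and 10.5% lower. Most of that sum was Tek, and the other 5 summed to 177 to 201 on the day 3 arrays and 260 to 314 on the day 6 arrays. The 7 macrophage and leukocyte markers summed to 659 to 698 in day 3 controls and 742 to 764 in day 3 knockdown, without overlap, and to 359 to 402 in day 6 controls and 389 to 411 in day 6 knockdown arrays. Their highest were Cd68 at a mean of 8.39 and Lyz2 at 5.26, and over time 1 of 6 tested fell in control and 2 fell in knockdown cells. Ptprc, the pan-leukocyte marker, and Emcn did not pass the filter. Most of the macrophage sum and of its fall was Cd68, which fell by 1.19 in control and 1.23 in knockdown cells (adjusted p = 9.56e-07 and 5.39e-07). The other 6 summed to 186 to 233 in day 3 controls and 187 to 232 in day 3 knockdown, which overlap, and to 155 to 176 on the day 6 arrays. The gap between the day 3 groups was thus in Cd68, at means of 8.90 in control and 9.09 in knockdown arrays. No marker of this list was called between hairpins at day 3. The part of these markers in the results was not tested.

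The genes whose values over the 12 arrays were most like those of Spint1 were Cdh1, Slc2a1, Bex1, Atp12a and Fgf4, with Pearson's r from 0.97 to 0.99 and Spearman's rho from 0.84 to 0.96. For Spint2 they were Pard6b, a cell polarity protein, Plet1, Map3k1, Cdh1 and Slc35f2, with r from 0.96 to 0.97 and rho from 0.90 to 0.98. Cdh1 was therefore near both inhibitors, with r of 0.99 to Spint1 and 0.96 to Spint2, and of 0.62 and 0.72 once the group means were removed. For St14 they were Chchd10, Tdgf1, Mt4, Atf7ip and Bex1, with r from 0.89 to 0.91 but rho from 0.55 to 0.84. For Prss8 they were Txlng, Slurp2, Zfp979, Nt5c1a and Zfp300, with r from 0.83 to 0.86 and rho from 0.72 to 0.90. Once the group means were removed, r of the named genes ran from 0.37 to 0.78 for Spint1 and 0.44 to 0.82 for Spint2. It then ran from 0.42 to 0.81 for St14 and 0.82 to 0.87 for Prss8. These values describe 12 arrays that share 4 groups and 3 replicate numbers, so a high r over all arrays can state little more than that group means follow each other.

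Among the 4 genes, Spint1 and Spint2 were the closest pair, with r of 0.96 and rho of 0.90, and Spint2 was the thirteenth gene in likeness to Spint1. St14 had r of 0.83 with Spint1 and 0.80 with Spint2, and Prss8 had 0.42, 0.51 and 0.22 with Spint1, Spint2 and St14. After the group means were removed, r was 0.72 between Spint1 and St14, 0.50 between Spint1 and Spint2 and 0.47 between Spint2 and St14. Prss8 then had −0.48 with Spint1, 0.15 with Spint2 and −0.53 with St14. Spint1 and St14 thus also deviated together within groups, as in day 6 control replicate 1, the lowest of its group for both. On that array Prss8 was the highest of its group, and Spint2, at 7.72, lay between the other arrays of its group. How many other genes have such an r after the group means are removed was not counted. Arrays of the same replicate number had correlated deviations over all genes tested (r 0.14 to 0.37 in groups compared).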

How the data were processed

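RNA from 12 samples was measured on Affymetrix arrays. Per the submitters' processing notes, the deposited values are signal intensities made with RMA and Affymetrix Expression Console 1.3.0.187. The sources used here give no genome build, annotation version or scan batch. The intensities ran from 4.71 to 13421, a linear scale rather than the log2 scale assumed when the tests were laid out, so log2 was taken. RMA equalises the distributions of the arrays, so a shift of all genes would not show. Array number limits the precision.

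Of 41345 probe sets, 23521 named 1 gene, 1814 several and 16010 none, by the platform annotation. Genes at or above the array's 30th percentile in 3 arrays entered limma 3.58.1 (R 4.3.3): group means over all 12 arrays, 8 residual and 4.37 prior degrees of freedom, two-sided, Benjamini-Hochberg adjustment over 17860 genes, threshold 0.05. The script was tested on simulated data. Python 3.11.15, pandas 2.3.3 and matplotlib 3.10.9 made tables and plots. The members and lists were chosen with earlier results of these data known. Genes named from the 3 lists of the protease system are those past the threshold (up to 4 a list and comparison) and the 2 with the highest mean. From the marker lists, the 2 with the highest mean and any called between hairpins were to be named. Some further markers are named beside them, so not every marker called over time is named. Genes most like a member are the 5 with the highest r, predicted and small RNA names left out. In groups compared, the 12 same-number pairs of arrays had correlated deviations from group means (r 0.14 to 0.37), so the numbers were taken to pair the samples in the within-pair differences. The main test had no term for the replicate number and was not paired. A fit with the replicate number as a block was run as an alternative.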

Additional observations from a re-analysis of the deposited data

How the results depend on the processing

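The number of the 4 genes past the threshold was recomputed under 10 other settings (9 for the difference between days) and with arrays left out in 15 ways. At day 6 between hairpins, 1 gene passed (Spint1) and 0 passed with the replicate block, with array weights, with only the 2 groups compared or with all probe sets fitted together (adjusted p of Spint1 0.0820, 0.0599, 0.347 and 0.168), although its log2 fold change stayed at 1.02 to 1.16 over the 10 settings. The count ran from 0 to 1 with arrays left out. The replicate block changed no other call. From day 3 to day 6 in control cells the count ran from 1 to 2 with arrays left out, and in knockdown cells from 2 to 3. At day 3 and for the difference between days it was 0 in every setting run, where the main test also gave 0. Differences that passed nowhere changed sign in some settings. With array weights Spint1 differed at day 3 by −0.016 and Prss8 by 0.081. Over the fits that leave out arrays, the day 3 knockdown difference reached from −0.088 to 0.23 for Spint1, −0.055 to 0.22 for St14 and −0.13 to 0.080 for Prss8, and the control change over time from −0.058 to 0.22 for St14 and −0.015 to 0.17 for Prss8. For Prss8 the day 6 knockdown difference reached from −0.019 to 0.28 and the difference between days from −0.061 to 0.21. Fits without a whole replicate have 2 arrays a group.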
